A study of Mus musculus with 2 samples.

Results

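The miR-200 family and the miR-183 cluster are small groups of microRNA (miRNA) genes known for their expression in epithelial and sensory cells, and they were examined here in mouse cerebral cortex. The 8 genes were taken by name from GENCODE release M21 among 2202 annotated miRNA genes. They are Mir200b, Mir200a and Mir429, which lie together on chromosome 4, Mir200c and Mir141, which lie together on chromosome 6, and Mir183, Mir96 and Mir182, which lie together elsewhere on chromosome 6. Adult females of strain 5xFAD/CAST, aged 8 to 10 months, gave left cerebral cortex for sequencing of small RNA in a size range under 30 nt. 5xFAD mice carry transgenes for mutant human amyloid precursor protein and presenilin under a neuronal promoter and form amyloid plaques. The 2 libraries, biological replicates 1 and 2, form 1 group with no other genotype, age or treatment. They name different tissue samples and the same donor entry, so technical and biological spread between them cannot be told apart. The labels do not say how many animals were used or how the 5xFAD and CAST backgrounds were combined.

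A miRNA is cut from a hairpin in a longer primary transcript, and it represses messenger RNAs that pair with its seed, bases 2 to 8 from its 5′ end. The miR-200 family keeps epithelial cells epithelial by repressing the transcription factors Zeb1 and Zeb2, and in the nervous system it is best known from the olfactory epithelium. The miR-183 cluster is known from photoreceptors, hair cells of the inner ear and sensory neurons, and a change in the seed of miR-96 causes hearing loss in mice. Neither group is regarded as a main miRNA of cortical neurons or glia.

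The mature miRNAs of the arm that is usually the more abundant are shown first, because their seeds divide the 8 genes into 5 sets. The sequences are from RefSeq on GRCm38.p6, 5′ to 3′, with the seed in capitals. All 8 genes matched that table, with the same hairpin coordinates as in GENCODE.
miR-200b-3p: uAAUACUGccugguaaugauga
miR-200c-3p: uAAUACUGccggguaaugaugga
miR-429-3p: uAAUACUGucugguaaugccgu
miR-200a-3p: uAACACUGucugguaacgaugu
miR-141-3p: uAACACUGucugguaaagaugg
miR-183-5p: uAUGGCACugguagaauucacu
miR-96-5p: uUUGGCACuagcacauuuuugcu
miR-182-5p: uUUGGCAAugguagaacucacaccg

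Mir200b, Mir200c and Mir429 share 1 seed, and Mir200a and Mir141 share another. Counting from 1 at the 5′ end, the seed of miR-200b differs from that of miR-200a by U4C alone. Both seeds occur in each of the miR-200 clusters. Within the miR-183 cluster no seed is shared. The seed of miR-183 differs from that of miR-96 by A2U, and the seed of miR-96 from that of miR-182 by C8A. Among the mature miRNAs of the RefSeq table, the seed of miR-96 was found in 1 more gene, Gm24195, which yields miR-1271, and the other 4 seeds were found in no gene outside the 8. Gm24195 had a count of 0 in each library, which allows up to 3 counts, or 0.710 CPM (counts scaled to 1000000 counted reads) in replicate 1 and 0.581 in replicate 2.

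The hairpins lie on the minus strand of mm10. Mir200b (ENSMUSG00000065549.3, 156055681 to 156055750), Mir200a (ENSMUSG00000065400.1, 156054896 to 156054985) and Mir429 (ENSMUSG00000065427.1, 156053905 to 156053987) follow each other in that order of transcription over 1846 bp of chromosome 4. All 3 are in an intron of the protein-coding gene Ttll10 on the same strand. They also lie within the noncoding gene Gm13648, Mir429 overlapping an exon of it and the others in introns. Mir200c (ENSMUSG00000065462.3, 124718322 to 124718390) and Mir141 (ENSMUSG00000065474.1, 124717914 to 124717985) span 477 bp of chromosome 6 in an intron of the noncoding gene Gm15884, and Mir141 also overlaps the unclassified transcript Gm29008. Mir183 (ENSMUSG00000065619.2, 30169668 to 30169737), Mir96 (ENSMUSG00000065586.1, 30169446 to 30169551) and Mir182 (ENSMUSG00000076361.1, 30165918 to 30165992) span 3820 bp of chromosome 6 and are intergenic.

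The tables held 12978140 and 15950006 reads, and 4226300 and 5162369 of them fell on the sense strand of an annotated miRNA. Each count was taken to be a read of a mature miRNA of similar length, which was not examined. Levels are therefore CPM over these reads and were not divided by hairpin length. A count covers both arms of a hairpin. As a check of the tissue, the 8 neuronal genes listed (Mir132, Mir383 and Mir137 leading) summed to 62764 and 43657 CPM in replicates 1 and 2, and the 3 oligodendrocyte genes (Mir338, Mir219a-2 and Mir219a-1) to 7100 and 5341. In these bulk samples, fewer cells of a type and less RNA per cell cannot be told apart.

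The 8 genes were scarce in cortex. Together they had 2610 counts in replicate 1 and 1429 in replicate 2, which is 0.0618% (Wilson 95% interval 0.0594 to 0.0642) and 0.0277% (0.0263 to 0.0292) of the counts on miRNA genes. Intervals cover counting error only, and not the spread between replicates. Reads without molecular identifiers are not independent molecules, so the intervals may be too narrow even for counting error. Of the 8 genes, 5 reached 10 CPM in both libraries, a level that 309 of the 2202 miRNA genes reached.

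The miR-200 cluster on chromosome 4 was led by Mir200b and Mir429. Counts of Mir200b were 582 in replicate 1 and 158 in replicate 2, giving 137.7 and 30.6 CPM, with a mean of 84.2 ± 75.7 (SD, n = 2). Mir429 had 554 and 276 counts, or 131.1 and 53.5 CPM (92.3 ± 54.9). Mir200a, between them on the transcript, had 77 and 49 counts, or 18.2 and 9.49 CPM (13.9 ± 6.17). All 3 genes were higher in replicate 1, and in each library Mir200a was below its neighbours on either side.

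The miR-200 cluster on chromosome 6 had the same arrangement of an abundant and a scarce gene. Mir200c had 463 and 306 counts, or 109.6 and 59.3 CPM (84.4 ± 35.6, SD, n = 2). Mir141 had 38 and 14 counts, or 8.99 and 2.71 CPM (5.85 ± 4.44). Both were higher in replicate 1.

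Across the clusters, the scarce genes were those with the AACACUG seed. Mir200a and Mir141 together held 6.71% of the counts of the 5 miR-200 genes in replicate 1 and 7.85% in replicate 2, with Wilson 95% intervals of 5.62 to 7.99 and 6.18 to 9.91. The genes with the AAUACUG seed, Mir200b, Mir200c and Mir429, held 93.3% and 92.2%. These shares differed between the libraries by less than their counting intervals, although the summed counts of the family were 1714 in replicate 1 and 803 in replicate 2.

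In the miR-183 cluster, Mir183 was the highest of all 8 genes in each library. It had 624 and 364 counts, or 147.6 and 70.5 CPM (109.1 ± 54.5, SD, n = 2). Mir182 had 271 and 258 counts, or 64.1 and 49.98 CPM (57.0 ± 10.0), the smallest relative spread of the 8. Mir96, whose hairpin lies between them, had 1 count in replicate 1 and 4 in replicate 2, or 0.237 and 0.775 CPM. Mir96 was thus at the level of a few reads in each library, and its share of the cluster was 0.112% in replicate 1 and 0.639% in replicate 2, with Wilson 95% intervals of 0.0197 to 0.629 and 0.249 to 1.63.

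**Figure D1:**
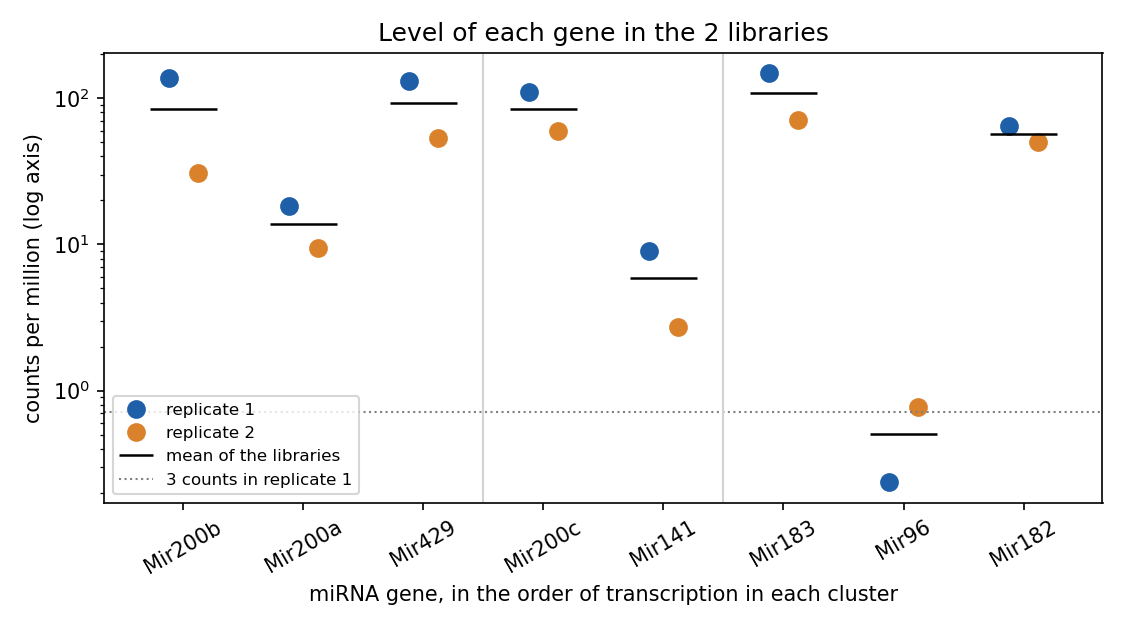
Level of each gene in CPM (log axis) in replicate 1 (blue) and replicate 2 (orange), with the mean as a black bar and clusters parted by grey lines; the dotted line is 3 counts in replicate 1. Mir183, Mir200b, Mir429, Mir200c and Mir182 lie between 30.6 and 147.6 CPM, Mir200a and Mir141 below them, and Mir96 under 1 CPM.

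By mean CPM the order was Mir183, Mir429, Mir200c, Mir200b, Mir182, Mir200a, Mir141 and Mir96. The ranges of neighbours overlapped for the first 5 genes, so their order is within the spread between libraries. From Mir182 down, the ranges of neighbours did not overlap, with mean ratios of 4.12 from Mir182 to Mir200a, 2.37 from Mir200a to Mir141 and 11.6 from Mir141 to Mir96. Mir200b moved most in the order, standing at place 2 of the 8 genes in replicate 1 and at place 5 in replicate 2. Among all 2202 miRNA genes, Mir183 ranked 197 by mean CPM and Mir96 ranked 625. The genes ranked next to Mir183 were Mir184 (112.2 ± 18.1 CPM) and Mir377 (111.2 ± 31.2) above it, and Mir130b (108.9 ± 22.9) and Mir3072 (108.8 ± 35.5) below it (SD, n = 2 each), none of them apart from Mir183 by more than the spread.

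With 1 group, the libraries can be set only against each other, so what follows says nothing of a condition. A two-sided exact binomial test, on library sizes scaled by TMM (trimmed mean of M-values), was run for the 546 genes whose summed count reached 10, and p-values were adjusted over them by the Benjamini-Hochberg method. All 7 genes with enough counts, that is all but Mir96, were higher in replicate 1 with adjusted p under 0.05, where 34.2% of all tested genes were called in that direction and 24.5% in the other. With the test restricted to genes of at least 100 counts, 6 of the cluster genes were called, beside 46% of genes higher in replicate 1 and 33.1% higher in replicate 2. The ratio was 2-fold or more in 4 of the 7, against 14.8% of all tested genes, and 10.4% were as much higher in replicate 2. The median log2 ratio, replicate 2 over replicate 1, was -1.10 for the 7 genes and -0.07 for all tested genes. Genes of 1 cluster share a primary transcript, so the 7 are not independent. Counting error is all that this test allows for, and how far replicates vary does not enter it. With an edgeR exact test at a fixed biological coefficient of variation (BCV) of 0.1, 6 of the 7 were called higher in replicate 1 (18.5% of all tested genes, and 10.3% higher in replicate 2). At a fixed BCV of 0.4 none of the 7 was called (0.916% of all tested genes, and 0.366% higher in replicate 2), so a spread of that size between replicates would leave no call.

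Among the miR-200 genes the ratio differed from gene to gene. Mir200b was 4.59-fold higher in replicate 1, with an exact 95% interval of 3.85 to 5.52 and an adjusted p of 1.87e-79. Its neighbour Mir429 was 2.50-fold higher (2.16 to 2.91; adjusted p 2.78e-37). For Mir200a the ratio was 1.95 (1.35 to 2.87; adjusted p 5.03e-04). The interval of Mir200b thus overlapped neither that of Mir429 nor that of Mir200a, its partners in 1 cluster. On chromosome 6, Mir200c was 1.89-fold higher (1.63 to 2.19; adjusted p 9.70e-18) and Mir141 3.31-fold (1.79 to 6.77; adjusted p 8.94e-05), with overlapping intervals. These adjusted p-values are from the exact binomial test. Of all tested genes, 3.85% had a lower log2 ratio than Mir200b, and among the 326 genes with at least 100 counts this share was 1.53%.

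Within the miR-183 cluster the genes also differed. Mir183 was 2.14-fold higher in replicate 1 (1.88 to 2.44; adjusted p 3.29e-31 by the exact binomial test). Mir182 was 1.31-fold higher (1.10 to 1.56; adjusted p 4.08e-03), an interval that did not overlap that of Mir183. Of the 7 genes, all of which lost their call at a BCV of 0.4, Mir182 was the one that lost it already at a BCV of 0.1, with adjusted p 0.219 in the edgeR exact test and between 4.08e-03 and 1 over all alternatives. Mir96 went the other way, from 1 count to 4, with an exact 95% interval of the log2 ratio from -1.66 to 7.30 that holds 0, and it had too few counts to be tested.

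**Figure D2:**
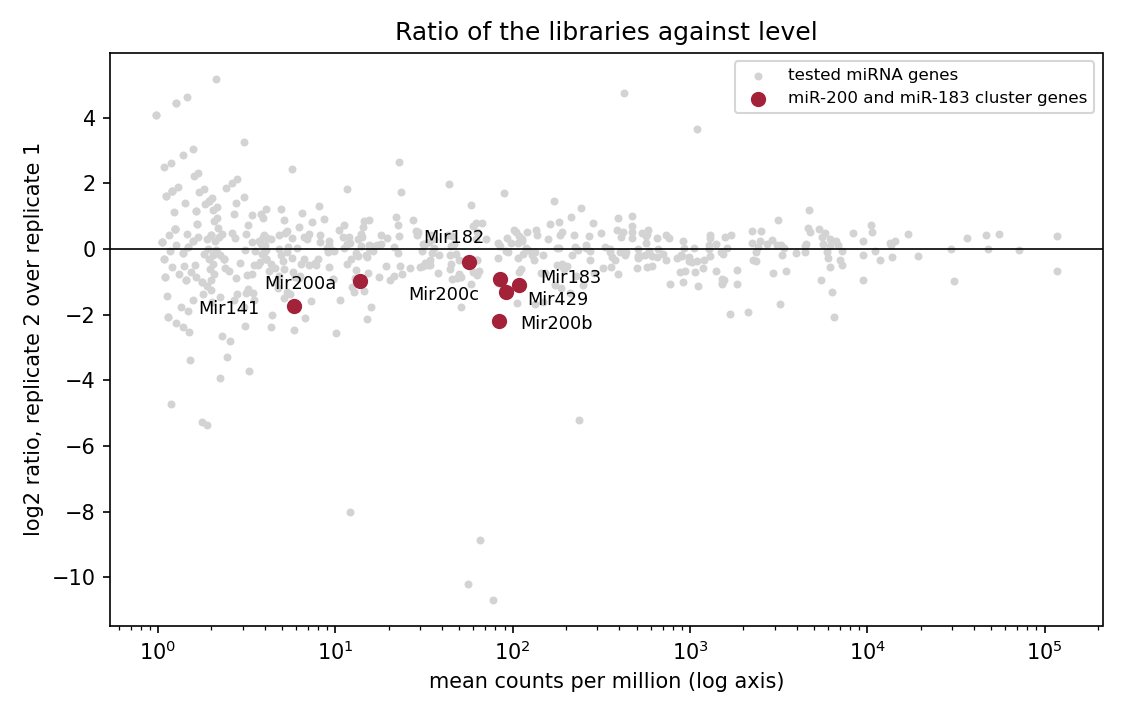
Log2 ratio of replicate 2 over replicate 1 (TMM-scaled, 0.5 counts added) against mean CPM (log axis) for the 546 tested miRNA genes in grey, with the 7 tested genes of the miR-200 and miR-183 clusters in red. All 7 lie under the line at 0, from -0.39 for Mir182 to -2.20 for Mir200b.

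Summed by cluster, Mir200b, Mir200a and Mir429 had 1213 and 483 counts, a mean of 190.3 ± 136.8 CPM (SD, n = 2), and were 3.13-fold higher in replicate 1 (exact 95% interval 2.82 to 3.49). The Mir200c and Mir141 cluster had 501 and 320 counts (90.3 ± 39.99 CPM) and was 1.95-fold higher (1.70 to 2.26). The miR-183 cluster had 896 and 626 counts (166.6 ± 64.2 CPM) and was 1.79-fold higher (1.61 to 1.98). The cluster on chromosome 4 stood apart from the other 2 by these intervals, and the 2 clusters of chromosome 6 overlapped.

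**Figure D3:**
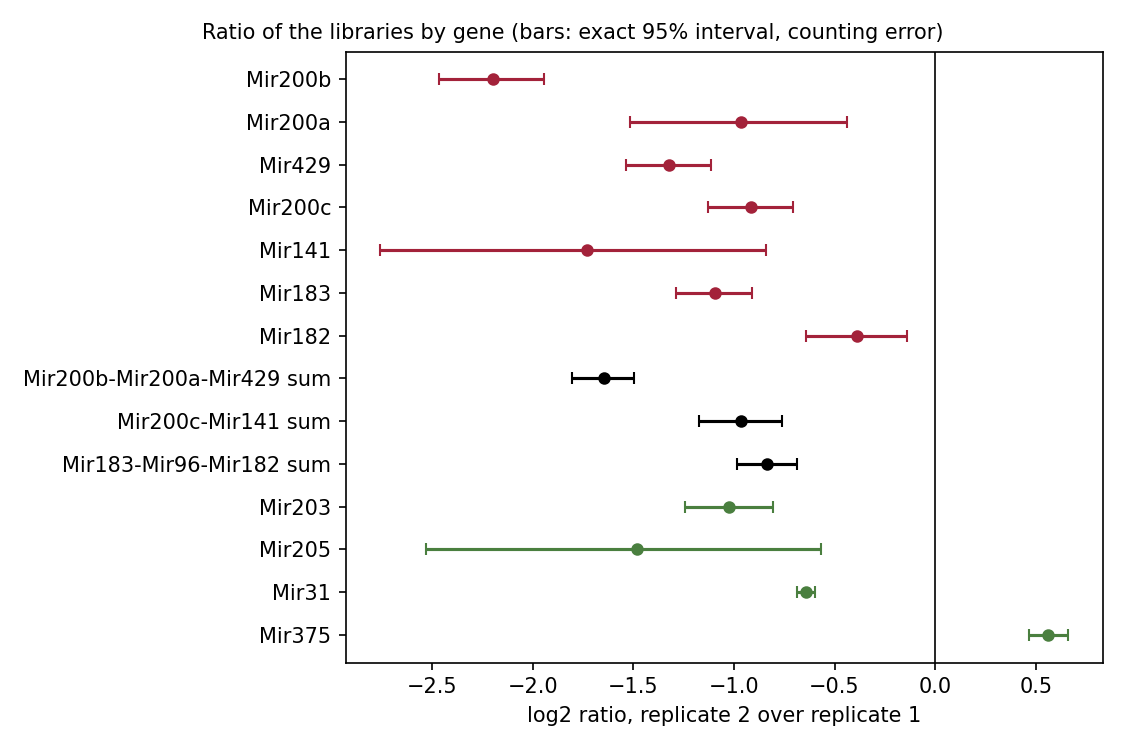
Log2 ratio of replicate 2 over replicate 1 with exact 95% intervals for counting error, for the tested cluster genes (red), the sum of each cluster (black) and 4 other epithelial miRNA genes (green). Mir200b is farthest from 0, and Mir375 is the gene that is higher in replicate 2.

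The make-up of the clusters on the chromosome 4 and miR-183 loci differed between the libraries by more than their counting intervals. Spread between replicates does not enter these intervals, and no fixed BCV was applied to the shares. Mir200b made up 47.98% of its cluster in replicate 1 and 32.7% in replicate 2, with Wilson 95% intervals of 45.2 to 50.8 and 28.7 to 37.0. Mir429 made up 45.7% (42.9 to 48.5) and 57.1% (52.7 to 61.5), so Mir200b was 1.05 times Mir429 in replicate 1 and 0.572 times in replicate 2. Mir183 made up 69.6% (66.6 to 72.6) of the miR-183 cluster in replicate 1 and 58.1% (54.2 to 61.95) in replicate 2. Mir182 made up 30.2% (27.3 to 33.3) and 41.2% (37.4 to 45.1). Mir200a kept overlapping intervals, at 6.35% (5.11 to 7.86) and 10.1% (7.76 to 13.2), as did Mir200c, at 92.4% (89.8 to 94.4) and 95.6% (92.8 to 97.4).

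**Figure D4:**
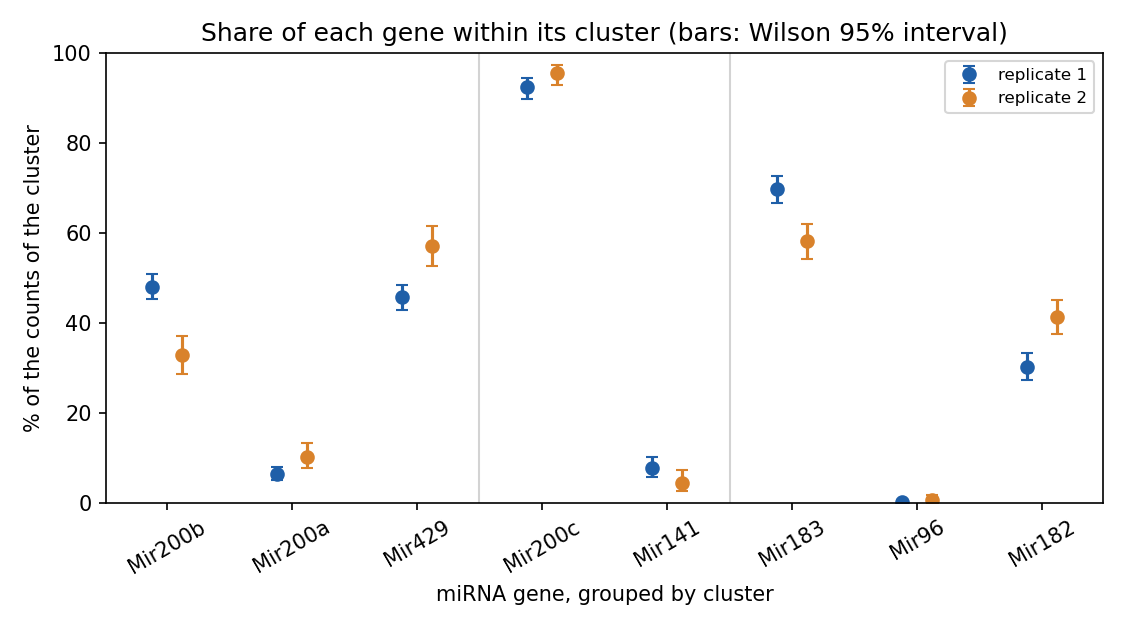
Share of each gene in the counts of its cluster, in percent, for replicate 1 (blue) and replicate 2 (orange), with Wilson 95% intervals for counting error. The intervals of the libraries are apart for Mir200b, Mir429, Mir183 and Mir182 and overlap for Mir200a, Mir200c, Mir141 and Mir96.

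Other miRNA genes of epithelia and of tissues known for the miR-183 cluster were read beside the 8. Among 4 other epithelial genes, replicate 1 was the higher library for 3 and replicate 2 for 1, all past the test, and their log2 ratios had a median of -0.83. Mir203, a miRNA of skin epithelium, had 110.3 and 55.4 CPM and was 2.03-fold higher in replicate 1. Mir205, of basal epithelial cells, had 32 and 14 counts and was 2.80-fold higher. Mir31 stood far above the 8 genes, at 2228 and 1460 CPM, and was 1.56-fold higher in replicate 1. Mir375, known from pancreatic islets and neuroendocrine cells, had 309.0 and 466.3 CPM and was 1.48-fold higher in replicate 2. Among all tested genes, 34.2% were called higher in replicate 1 and 24.5% in replicate 2. With the test restricted to genes of at least 100 counts, these shares were 46% and 33.1%. With the edgeR exact test, these epithelial genes kept their call at a BCV of 0.1 and lost it at a BCV of 0.4.

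None of the listed genes of the pineal gland, pituitary, choroid plexus or ependyma was called higher in replicate 1. Among all tested genes, 34.2% were called in that direction and 24.5% in the other. With the test restricted to genes of at least 100 counts, these shares were 46% and 33.1%. These lists are small and not separate, since Mir375 is also among the epithelial genes and Mir204 is also listed for the retina. Of the 2 pineal genes, Mir325 was 1.42-fold higher in replicate 2, and Mir483 had 50.2 and 46.1 CPM and was not called (adjusted p 0.368, exact binomial test). All 4 pituitary and neuroendocrine genes were called higher in replicate 2, Mir7b at 1.13-fold and Mir7-2 at 1.49-fold among them. Of 6 choroid plexus genes, 4 were called higher in replicate 2, Mir204 (474.6 and 666.9 CPM) and Mir1298 (89.9 and 254.1) among them. Mir1264 (30.3 and 34.1 CPM) was not called. Of 5 ciliated and ependymal genes, 3 could be tested, and 1, Mir34c, was called higher in replicate 2 at 2.02-fold. The other tested ones, Mir449a (46.4 and 42.0 CPM) and Mir34b (10.9 and 12.4), were not called. Mir211, which with Mir204 changes with light in the retina alongside the miR-183 cluster, had 65.5 and 37.0 CPM and was 1.81-fold higher in replicate 1, the opposite direction to Mir204. These calls are by the binomial test, which allows for counting error only. With the edgeR exact test at a BCV of 0.1, Mir325, Mir7b and Mir204 lost their call. Mir7-2, Mir1298, Mir34c and Mir211 kept it there and lost it at a BCV of 0.4.

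Of the listed genes of pluripotent cells, those that could be tested were all Mir302 genes. They were also higher in replicate 1, by far more than the tested genes of the 8. Their independence of each other was not examined. The background for these and the following lists is 34.2% of all tested genes called in that direction and 24.5% in the opposite one. For genes of at least 100 counts it is 46% and 33.1%. The 14 listed genes summed to 423.5 CPM in replicate 1 and 0.581 in replicate 2. Of them, 4 could be tested and all were called higher in replicate 1: Mir302a with 656 and 0 counts, Mir302b with 553 and 1, Mir302c with 102 and 0 and Mir302d with 475 and 0. Of the rest, 8 had no count in either library, Mir367, Mir290a, Mir291a and Mir295 among them. The 5 immune genes summed to 4954 CPM in replicate 1 and 2261 in replicate 2. Of these, 3 were called higher in replicate 1, Mir21a (3357 and 899.2 CPM) and Mir146 (1335 and 1074) among them, 1 was called higher in replicate 2, and Mir155 (173.0 and 180.7) was not called. The 3 blood genes summed to 72.4 and 887.0 CPM: Mir451a (30.0 and 821.3) and Mir144 (6.15 and 39.7) were called higher in replicate 2, and Mir486 (36.2 and 25.96) higher in replicate 1. Of the 3 vascular genes, which summed to 13268 and 19327 CPM, Mir126a and Mir143 were called higher in replicate 2 and Mir145a higher in replicate 1. With the edgeR exact test at a BCV of 0.1, Mir146, Mir486, Mir143 and Mir145a lost their call. At a BCV of 0.4, Mir21a, Mir144 and Mir126a lost it too, and the Mir302 genes and Mir451a kept it. The part of pluripotent, immune or blood material in the ratios of the 8 genes was not tested.

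The genes whose ratio was nearest to that of the summed miR-200 genes (log2 ratio -1.41), among those with at least 100 counts, were Mir329 (-1.35), Mir128-1 (-1.32), Mir3069 (-1.31), Mir1247 (-1.28) and Mir380 (-1.62). For the summed miR-183 genes (-0.84) they were Mir362 (-0.82), Mir211 (-0.85), Mir125b-2 (-0.81), Mir3083 (-0.86) and Mir7044 (-0.80). This likeness is over 2 libraries. Mir128-1 and Mir125b-2 have a near-identical copy at another locus, and multiply mapped reads were not assigned to genes, so their values are uncertain. Uniqueness was not examined for the genes of the marker lists either. Some of those, such as Mir7-2, Mir219a-1 and Mir219a-2, are by name numbered copies, and the same limit may hold for them. Mir3083 also had counts on the opposite strand, 50 and 64 beside 95 and 65 on its own.

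Reads that map to several places made up 40.4% and 39.4% of all reads, so the uniqueness of the 8 genes bears on their counts. The longest run of bases that a mature miRNA of the 8 shared with another hairpin of the RefSeq table was 16, between miR-200a-3p and miR-141-3p. Their sequences, given above, differ by C17A and U22G, and for the other mature miRNAs the run was 12 or shorter. A full-length read of any of the 8 genes therefore had no identical match in another hairpin of that table. The rest of the genome was not searched.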

How the data were processed

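Raw read counts per miRNA gene, as deposited by the authors, were used for each of the 2 libraries of 1 group. Per the records deposited beside them, they refer to GENCODE M21 on mm10. The aligner, counter and trimming tool are not named in the sources at hand. The files have no header, and the sense-strand column was recognised from its totals. The 4 rows that name no gene (unmapped, multiply mapped, outside genes, ambiguous; 67.4% and 67.6% of reads) stayed out of library sizes and tests. All 2202 IDs matched the annotation.

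CPM and TMM factors (0.989 and 1.01, from genes whose summed count reached 10; edgeR 4.0.16, R 4.3.3) were computed here. Library sizes of 4226300 and 5162369 counts put 3 counts at 0.710 and 0.581 CPM. The exact binomial test and intervals used SciPy 1.17.1; log2 ratios had 0.5 counts added. With 1 library on each side no dispersion can be estimated, so quasi-likelihood tests could not be fitted. The procedure was tested on simulated counts that varied by counting error only. That setting is the one the binomial test assumes, so it cannot show how the test behaves with spread between replicates. Alternatives were the unstranded column, DESeq2 1.42.0 size factors or total counts, other count minimums, pseudocounts and denominators, fixed BCVs, a 2-fold rule and leaving out a library. Levels of different miRNAs were not corrected for ligation efficiency. Mapping of reads from CAST alleles was not analysed here.

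Named genes were the 8, the 3 listed genes with the most counts per marker list (all tested ones of the epithelial, pineal and pluripotent lists), the 5 nearest in ratio to each family and the 2 on either side of Mir183 in level. Members of the list that had no count and are named were chosen after their values were seen. The 8 genes and the lists were chosen with earlier results of these data known.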

Additional observations from a re-analysis of the deposited data

Results flagged for a closer look

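Reads on the opposite strand were seen at 2 of the 8 genes. Mir200a had 5 in replicate 1, above the limit of 3 counts set here for flagging, beside 77 on its own strand. In replicate 2 it had 1 beside 49. Whether counts above or below that limit are real was not tested. Mir141 had 3 in replicate 1 and 0 in replicate 2, which does not pass that limit, and the other 6 genes had none. Mir200a and Mir141 are the pair with the AACACUG seed. The longest run that either mature arm of these genes shares with the opposite strand of its own hairpin is 7 bases.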

How the results depend on the processing

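The 7 calls among the cluster genes were also made with the unstranded column, DESeq2 size factors, total counts and a minimum of 1 count, and 6 genes were called at a minimum of 100 counts, which leaves out Mir141. No alternative changed the sign of a ratio of these 7 genes. At a fixed BCV of 0.4 the count of cluster genes called higher in replicate 1 was 0, and by the 2-fold rule it was 4. Over all genes, the test called 187 genes with replicate 1 higher and 134 with replicate 2 higher. These numbers were 101 and 56 at a BCV of 0.1, 5 and 2 at a BCV of 0.4, and 81 and 57 by the 2-fold rule, which uses no test. With all reads of the table as denominator, mean levels of all 3 clusters were lower, by the larger denominator, at 61.9 CPM for the chromosome 4 cluster, 29.3 for Mir200c and Mir141 and 54.1 for the miR-183 cluster. Leaving out 1 library gave 93.6 to 287.0 CPM for the chromosome 4 cluster, 62.0 to 118.5 for Mir200c and Mir141 and 121.3 to 212.0 for the miR-183 cluster. No paired analysis was possible because the 2 libraries form 1 group. Depth limits Mir96 and Mir141 most, with 5 and 52 counts in all.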
